A study of Mus musculus with 12 samples.

Results

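This account follows 6 mouse genes that make structural or nuclear noncoding RNAs: Malat1, Neat1, Rmrp, Rpph1, Rn7sk and Terc. They were matched by gene identifier and chromosome, not by a measured value, but the list was made with earlier results of these data known. Of the 6, 4 identifiers matched a gene of the count files on the named chromosome, among 55416 annotated genes. The identifiers given for Rn7sk and Terc matched none, so both were dropped and are not analysed here. Whether their reads were counted under another identifier is not known. These RNAs are often grouped as abundant, but among the members with counted reads only Malat1 ranked among the genes with most reads here. Reads touching a base shared with another gene were not counted, so the reads of Rmrp and Rpph1 do not give their abundance.

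Whole ovaries were taken from mouse fetuses at E16.5, a stage counted in embryonic days, and each sample pooled 5 pairs. The groups were Fmr1 knockout (KO) and wild type (WT), whose input animals the design text calls littermates. The labels give the same strain name, B6.129P2-Fmr1tm1Cgr/J, for both groups, and do not state whether KO ovaries were homozygous. Each genotype had 3 input libraries and 3 libraries of RNA immunoprecipitation (RIP) aimed at FMRP, the protein product of Fmr1, which binds RNA. In ovaries labelled as Fmr1 knockout, RIP stands for background and not for RNA bound by FMRP. The labels describe a detergent homogenate that was spun at full speed before part of it was kept as input, so nuclear RNA left in the pellet was not measured.

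Noncoding RNAs of this kind act as RNA and are not translated. Malat1 is a long RNA of nuclear speckles, where splicing factors gather, and lacks an ordinary poly(A) tail. Neat1 is the scaffold of paraspeckles, nuclear bodies built around RNA-binding proteins. Rmrp is the RNA part of RNase MRP, which cuts precursor ribosomal RNA, and Rpph1 is the RNA part of RNase P, which trims the 5′ end of precursor tRNA. Both are short and made by RNA polymerase III.

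Malat1 (ENSMUSG00000092341) lay on the minus strand of chromosome 19 from 5845718 to 5852700, with an exonic length of 6983 bases. Neat1 (ENSMUSG00000092274) lay on the same strand from 5874736 to 5895506, with 20771 exonic bases, and 22035 bases separated the pair. Rmrp (ENSMUSG00000088088) lay on the minus strand of chromosome 4 from 43492788 to 43493058 (271 bases), and Rpph1 (ENSMUSG00000092837) on the minus strand of chromosome 14 from 51044906 to 51045224 (319 bases). These positions are those of the count files, whose annotation is Ensembl release 104. Counts are per gene, so the short and long Neat1 transcripts cannot be told apart.

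RefSeq (GRCm38.p6) had a promoter window for 1 of the 6 genes, Malat1, the member with most reads, and the window is shown so that its start can be seen. It covers 250 bases before the start and 50 after it, at chr19:5802623-5802922 on the minus strand, and the capitals mark the transcribed bases. This position is in GRCm38.p6 and cannot be set beside those of the count files, whose annotation was made for a later build.
Malat1: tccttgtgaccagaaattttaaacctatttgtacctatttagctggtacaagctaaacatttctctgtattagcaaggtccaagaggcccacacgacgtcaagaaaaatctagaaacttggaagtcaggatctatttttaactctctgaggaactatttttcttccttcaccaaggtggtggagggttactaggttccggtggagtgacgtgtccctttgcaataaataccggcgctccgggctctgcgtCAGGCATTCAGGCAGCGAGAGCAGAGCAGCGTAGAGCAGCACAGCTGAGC
The letters TATAA and CCAAT and the octamer letters ATGCAAA were searched on both strands and had 0 matches there. Of 32851 such windows, 24.9% held TATAA, 37.4% held CCAAT and 4.63% held ATGCAAA. The telomerase template letters CTAACCC, searched on the transcribed strand after the start, also had 0 matches, and 0.119% of windows held them. Those letters were planned for Terc, which had no window, so their absence here is no result about Malat1.

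Input libraries held 18880238 to 25707718 counted reads. Mitochondrial genes took 2.51% to 2.85% of them and the gene with the highest count 8.03% to 9.75%. Fmr1, the targeted gene, stood at 85.6, 123 and 93.4 CPM (reads relative to library size, with TMM scaling) in KO and at 204, 213 and 221 CPM in WT. In edgeR's quasi-likelihood test it fell by 1.08 on the log2 scale (SE 0.11, adjusted p = 0.00775, with Benjamini-Hochberg adjustment over all tested genes). The KO libraries thus had less of it, in the direction of the label. Many Fmr1 reads remained in every KO library, and why was not tested.

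Malat1 dominated the counted reads of the members. It alone took 0.497%, 0.648% and 0.591% of the counted reads in the KO libraries, numbered 1 to 3, and 0.511%, 0.644% and 0.591% in the WT libraries. By raw count it ranked between 6 and 11 of all genes in every library. Counting error was small at this depth: the exact binomial 95% interval in KO replicate 1 ran from 0.494% to 0.500% (95731 reads). Such intervals cover counting error only, and the replicates differed by far more.

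The genotypes did not separate in Malat1. Its level was 4987, 6388 and 5912 CPM in KO and 5184, 6416 and 6008 CPM in WT. The ranges overlapped almost completely, with replicate 1 the lowest and replicate 2 the highest in both genotypes. Mean Malat1 was 5762 ± 712 CPM in KO and 5869 ± 628 CPM in WT (SD, n = 3 each). The log2 change was -0.03 (SE 0.11, 95% interval -0.27 to 0.22), which corresponds to a fold between 0.828 and 1.16 (adjusted p = 0.991, edgeR). The share of reads averaged 0.579% ± 0.0765 in KO and 0.582% ± 0.0669 in WT (exact permutation p = 1, two-sided, where 3 against 3 libraries allow no p below 0.1). In whole ovaries, a change in the cells present and a change in RNA per cell cannot be told apart.

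Malat1 varied between replicates of 1 genotype more than most genes of its abundance. Its coefficient of variation within genotypes was 11.5%, where the median of the 100 genes nearest in CPM was 5.23%. For Neat1 the values were 10.7% and 9.21%, and for Rpph1 10.8% and 15.8%. The sign of the small Malat1 difference turned with single libraries left out: the log2 change was 0.07 without KO replicate 1 and 0.04 without WT replicate 2.

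**Figure D1:**
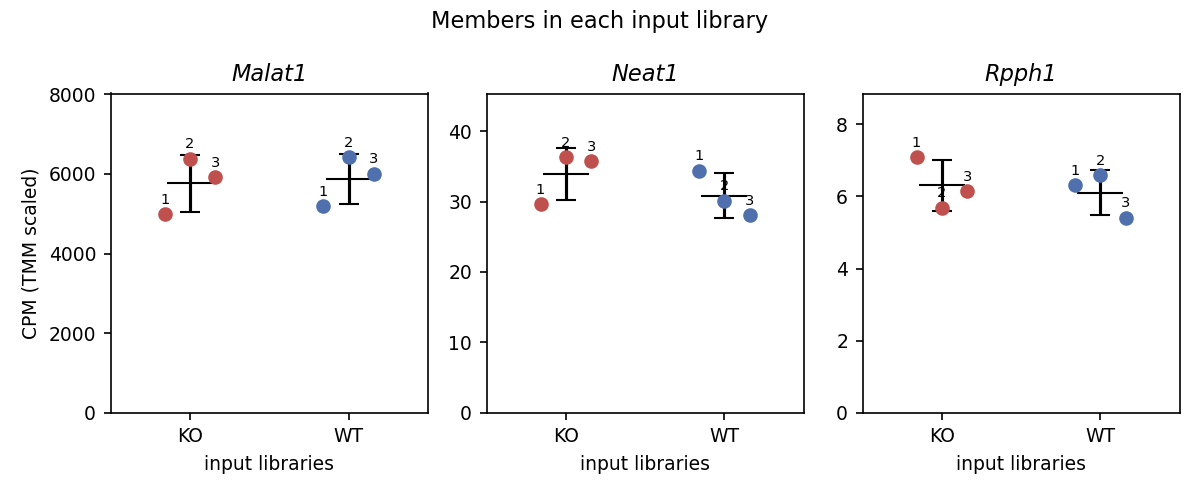
CPM (TMM scaled) of Malat1, Neat1 and Rpph1 in each input library, KO left and WT right; points are libraries marked with their replicate number, and the bar and whiskers are the mean and SD of 3. KO and WT points overlap for all 3 genes, and each axis starts at 0.

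Neat1 was far scarcer. It had 569, 874 and 674 reads in KO and 871, 690 and 592 reads in WT, or 0.00295%, 0.00368% and 0.00357% of the KO libraries and 0.00339%, 0.00302% and 0.00276% of the WT libraries. On the CPM scale these were 29.6, 36.3 and 35.7 in KO and 34.4, 30.1 and 28.1 in WT. KO replicates 2 and 3 were the highest of all, but KO replicate 1 lay below WT replicates 1 and 2, so the groups overlapped. Mean Neat1 was 33.9 ± 3.68 CPM in KO and 30.8 ± 3.21 CPM in WT (SD, n = 3 each). The log2 change of 0.13 (SE 0.11, 95% interval -0.09 to 0.36) did not pass (adjusted p = 0.963, edgeR). Folds from 0.937 to 1.29 lie within that interval.

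Rpph1 had the fewest reads of the members that were counted, at 136, 137 and 116 in KO and 160, 151 and 114 in WT. Its level was 7.08, 5.68 and 6.15 CPM in KO and 6.31, 6.59 and 5.41 CPM in WT. The highest value was in a KO library and the lowest in a WT library, while the other WT values lay above the other KO values, so the groups overlapped. Mean Rpph1 was 6.31 ± 0.713 CPM in KO and 6.10 ± 0.619 CPM in WT (SD, n = 3 each). The log2 change was 0.04 (SE 0.19, 95% interval -0.34 to 0.43, adjusted p = 0.991, edgeR). Its interval was the widest of the 3, spanning folds of 0.788 to 1.35.

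Of the 3 members tested, 0 passed at an adjusted p of 0.05 by edgeR, 0 by DESeq2 and 0 by limma-voom, and 0 had an unadjusted p under 0.05 by edgeR. Over all 23698 tested genes, edgeR called 0.0422%. The median log2 change was 0.04 over the 3 members and -0.002 over all tested genes. KO and WT values overlapped for all 3 members, whereas they did not overlap for 10.9% of tested genes. Shares of the library gave exact permutation p-values of 1, 0.3 and 0.8 for Malat1, Neat1 and Rpph1 (1, 0.9 and 1 after Benjamini-Hochberg adjustment over the 3). The edgeR intervals leave room for changes of the sizes given, so equal levels are not shown.

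**Figure D2:**
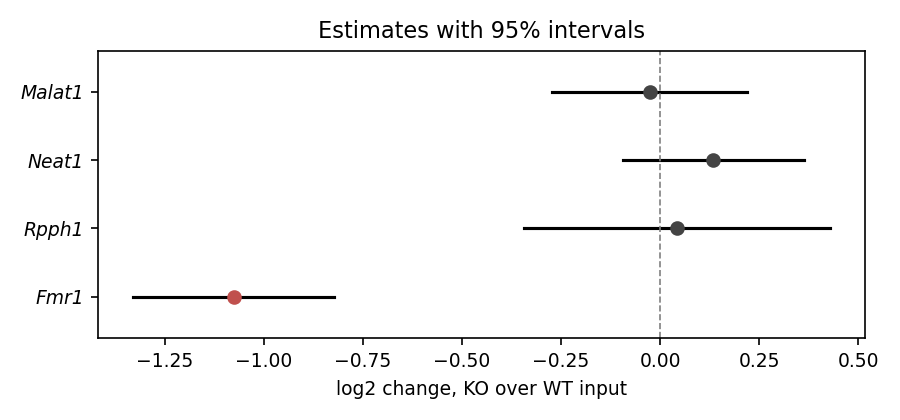
Log2 change, KO over WT input, from edgeR for Malat1, Neat1, Rpph1 and the targeted gene Fmr1; points are estimates and lines 95% intervals. The 3 member intervals cross 0, and the Fmr1 interval runs from -1.33 to -0.82.

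Per length, the 3 counted members stood in the order Malat1, Rpph1, Neat1 in every library. Malat1 had 714 to 919 CPM per kb of exonic length, which placed it at rank 67 of 23698 tested genes by mean. Rpph1 had 16.9 to 22.2 CPM per kb (rank 2584) and Neat1 1.35 to 1.75 CPM per kb (rank 14647). These ranges did not overlap. Rpph1 shares 233 of its 319 bases with another gene, and reads there were not counted. Its level and rank therefore leave out part of its reads. Malat1 exceeded Neat1 by 449-fold to 637-fold per length, although both are nuclear RNAs of neighbouring genes. The Neat1 length includes its long transcript. If its reads came mostly from the short one, its level per length is understated and these folds are overstated, which the counts cannot tell. In CPM without the length, the order was Malat1, Neat1, Rpph1, at ranks 8, 6232 and 12956.

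**Figure D3:**
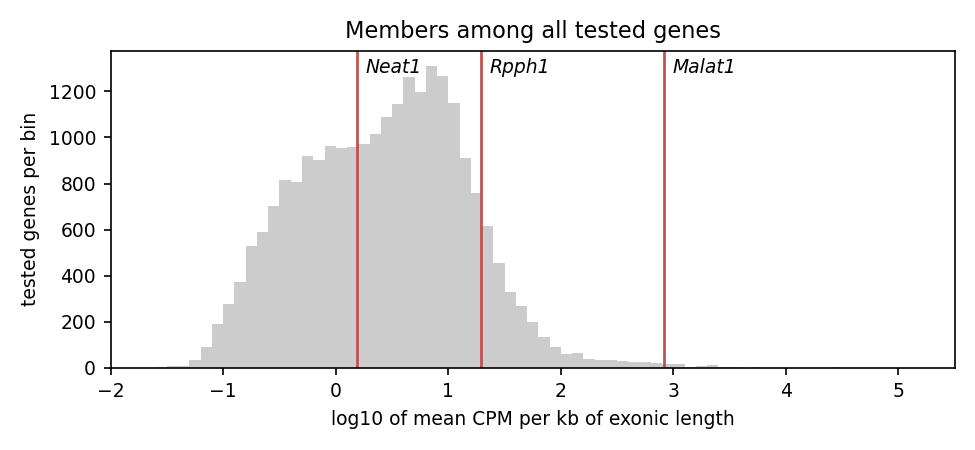
Distribution of mean CPM per kb of exonic length over the 23698 tested genes, on a log10 axis, with red lines at Neat1, Rpph1 and Malat1. Malat1 lies in the far right tail, at 833 CPM per kb, and Neat1, at 1.56 CPM per kb, lies left of the main peak.

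Across the 6 input libraries the members did not move together in a way the data could show. Malat1 and Neat1 had a Pearson correlation of 0.122 (exact permutation p = 0.736) and a Spearman correlation of 0.200 (exact permutation p = 0.714). Malat1 and Rpph1 had -0.564 and -0.371 (exact permutation p = 0.232 and 0.497), and the Pearson value was 0.326 without the 2 libraries farthest from the median of Malat1. Neat1 and Rpph1 had -0.119 and -0.143 (exact permutation p = 0.811 and 0.803), and the Pearson value was -0.908 without the 2 libraries farthest from the median of Neat1. For Malat1 and Neat1 it was then 0.0431. After Benjamini-Hochberg adjustment over the 3 pairs the Pearson p-values were 0.811, 0.696 and 0.811, and the Spearman p-values were 0.803 in all 3 (exact permutation tests).

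The genes with the pattern most like each member over the 6 libraries were ENSMUSG00000025511 for Malat1 (Pearson 0.983), ENSMUSG00000116560 for Neat1 (0.996) and ENSMUSG00000028919 for Rpph1 (0.990). They were the best of about 11290 genes with a mean of at least 10 CPM. With 6 points, 10, 13 and 21 genes reached 0.95, and the likeness is a description only. The files used here do not pair these identifiers with names.

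Rmrp had 0 counted reads in all 6 input libraries, and this 0 is not a level. All 271 of its bases lie inside an exon of a second annotated gene on the same strand, ENSMUSG00000115420 (43492783 to 43493063), and 124 also lie in an exon of ENSMUSG00000028461 on the other strand. The counting command had no option to assign a read that touches more than 1 gene, so no read could be credited to Rmrp. ENSMUSG00000115420, with 10 bases of its own, also had 0 reads in every library. ENSMUSG00000028461, with 1423 bases outside Rmrp and its copy, had 359, 340 and 288 reads in KO and 345, 361 and 323 in WT.

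The same held throughout the annotation. Every exonic base of 1248 genes was also in an exon of another gene, and all 1248 had 0 reads in the 6 libraries together. Of the other 54168 genes, 4598 had 0 reads.

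The other members lost part of their length in the same way. Rpph1 shared 233 of its 319 bases with an exon of ENSMUSG00000071470 on the same strand, which left 86 bases unshared. They lay on both sides of that exon, and a read that also touched it could not count. The Rpph1 length open to reads is therefore not known. Malat1 shared 539 bases with 2 genes lying wholly inside it, one of them antisense (453 bases), and Neat1 shared 384 bases with 3 genes inside it. These 5 genes had 0 reads in every library. Over the unshared bases alone, a length chosen after seeing the data, Rpph1 stood at 62.9 to 82.4 CPM per kb, Malat1 at 774 to 996 and Neat1 at 1.38 to 1.78. By that length the order was unchanged, but Rpph1 then exceeded Neat1 by 45.9-fold on average, against 12.6-fold over the full exonic length. Neither length gives the true level of Rpph1, because reads reaching into its shared bases were lost. The reads were counted without strand, so sense and antisense reads of these loci cannot be told apart.

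**Figure D4:**
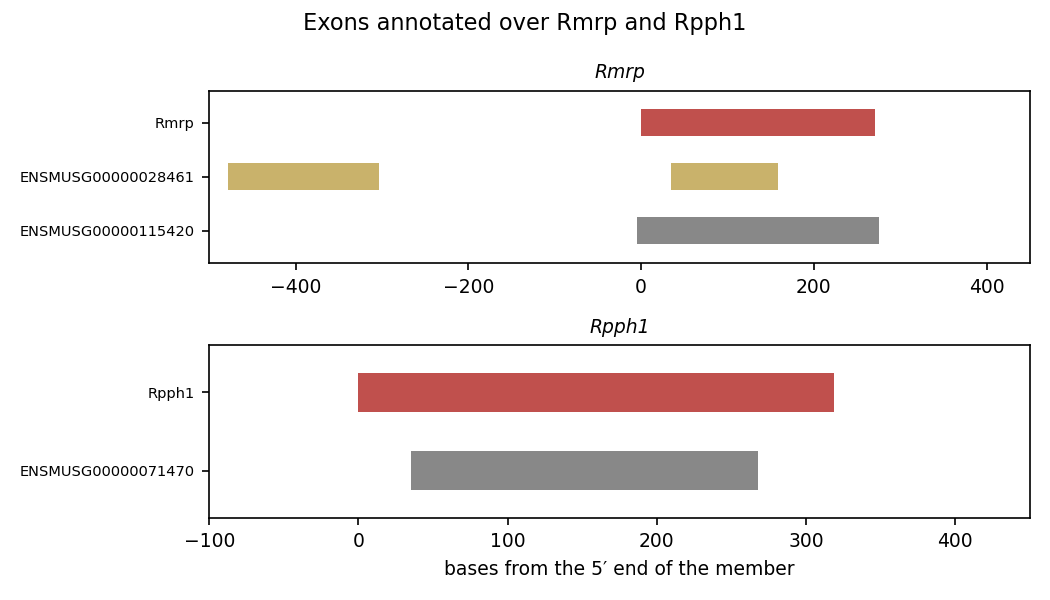
Annotated exons over Rmrp and Rpph1, drawn to scale in bases from the 5′ end of each member (red), with exons of other genes on the same strand in grey and on the other strand in ochre. The grey gene covers all of Rmrp, and a grey exon covers 233 of the 319 bases of Rpph1.

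In the RIP table, the authors' deposited fold enrichments, Rmrp was the member with a row. Malat1, Neat1 and Rpph1 had 0 of the 14447 rows used here, so nothing can be said of their pull-down. How rows were chosen is not given in the sources used here. Abundance did not guarantee a row: of the 10 genes with the highest input CPM 6 had one, of the 100 highest 68, and of the 1000 highest 844. Malat1 was among the 10.

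The Rmrp row had fold enrichments of 0.724, 1.01 and 0.551 in KO and 1.01, 0.797 and 0.817 in WT. In this comparison the KO libraries stand for background. In every library the ratio lay well below the median of all rows, which was 1.72 to 1.78, at 0.317 to 0.570 of it. KO replicate 2 and WT replicate 1 were the highest, and the groups overlapped; KO and WT ratios did not overlap in 15.2% of all rows. The row averaged 0.763 ± 0.233 over the KO libraries and 0.874 ± 0.117 over the WT libraries (SD, n = 3 each). The KO mean was 0.872 of the WT mean, a difference of -0.112 (exact permutation p = 0.5, two-sided, where the smallest possible is 0.1).

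Rmrp had the lowest mean of the whole table, 0.818, with 0 of 14447 rows below it. The row of ENSMUSG00000115420 held the same 6 values, so both rows are 1 measurement over the same bases. The next lowest row mean was 0.863. This rank was noticed in the data and was not tested. Of all rows, 82 had a mean under 1. The denominator of the ratio is not given in the sources used here and the depth behind it is unknown, so the row describes low enrichment and not an amount bound.

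Because its mean lay under 1, the Rmrp row was left out of the limma fit, which called 0% of 14365 rows (1272 had an unadjusted p under 0.05, 413 of them higher in KO). Fitted with all rows kept, its log2 difference, KO over WT on the log2(value + 1) scale, was -0.10 (SE 0.096, adjusted p = 0.809, limma). On that scale the size of a change of a low value is understated. The gene with the highest input count, ENSMUSG00000119584 (chromosome 17), had RIP ratios of 1.08, 1.36 and 0.863 in KO and 1.04, 0.841 and 0.780 in WT, so that KO replicate 2 was the highest KO library and WT replicate 1 the highest WT library there too. The part of such differences between libraries in the Rmrp values was not tested.

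**Figure D5:**
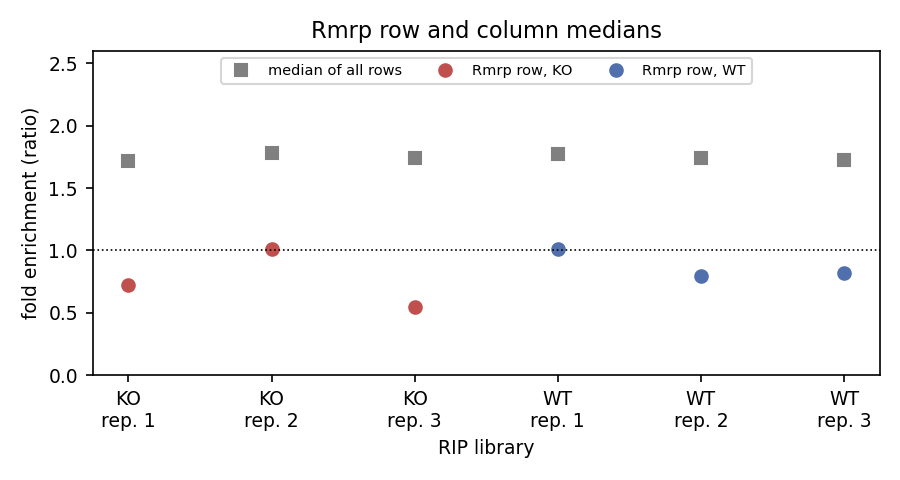
Fold enrichment (the authors' ratio) of the Rmrp row in each RIP library, KO libraries left and WT libraries right, with grey squares for the median of all rows and a dotted line at 1. The Rmrp points lie between 0.551 and 1.01, below every column median.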

How the data were processed

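Input files hold the authors' deposited raw counts, whole reads per gene. Per the file headers, featureCounts 1.6.3 counted reads over exons with the Ensembl release 104 annotation, with no option for strand, read pairs, multiple placements or multiple overlap. Build GRCm38 and the tools BWA 0.7.12, MACS2 2.1.0, FastQC and DESeq2 1.26.0 stand in the submitters' processing notes without a role. That annotation release was made for a build later than GRCm38; coordinates were left as deposited. The authors' RIP values are fold enrichments, a linear ratio, deposited as 1 column per library.

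Input counts went into edgeR 4.0.16 in R 4.3.3 (TMM, filterByExpr, robust quasi-likelihood test, KO over WT, Benjamini-Hochberg over all tested genes), with DESeq2 1.42.0 and limma-voom as alternatives. SEs are the log2 change over the square root of F. RIP ratios were tested with limma 3.58.1 on log2(value + 1), columns centred on their medians, keeping rows whose mean reached 1. Both fits were run on simulated data with independent noise, as a check of the code and not of the results here. Other scalings, filters and pseudocounts, each library left out and a replicate block were tried as alternatives. P-values measure the spread between pools. Same-numbered KO and WT libraries showed no positive correlation of their deviations (-0.0916, -0.0438 and -0.0550 in input and -0.601, -0.336 and -0.218 in RIP). Differently numbered libraries were not set beside them, so pairing by number was not tested.

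The text names the members, Fmr1, genes overlapping a member and, per member, the gene most like it; the gene with the highest count was added after its values were seen. Members and lists were chosen with earlier results of these data known. Protein partners of these RNAs and ovary markers are not reported, because the RefSeq table (GRCm38.p6) matched 0 identifiers; for the same reason the ovary label was not checked against markers.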

Additional observations from a re-analysis of the deposited data

How the results depend on the processing

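No member passed the threshold in any of the 14 alternatives run on it in the input. Outside the fits without 1 library, the log2 change ran from -0.032 to -0.0082 for Malat1, from 0.129 to 0.154 for Neat1 and from 0.033 to 0.060 for Rpph1. With 1 library left out it ran from -0.108 to 0.068 for Malat1, from 0.071 to 0.222 for Neat1 and from -0.048 to 0.116 for Rpph1, so the sign turned for Malat1 (without KO replicate 1 or WT replicate 2) and for Rpph1 (without KO replicate 1, -0.048, or WT replicate 3, -0.035). The KO minus WT share ran from -0.0388 to 0.0376 percentage points for Malat1, from -9.58e-06 to 5.54e-05 for Rpph1 and from -0.0382 to 0.0382 for the 4 genes together, and what caused these turns was not tested. Under the replicate block the log2 changes were -0.028, 0.134 and 0.044, and the Rmrp row stayed at -0.10. Whether the numbers pair the samples was not tested.

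The count of 10 called input genes was 41 with DESeq2, 113 with no low-count filter, 20 with the replicate block and 5 to 37 with 1 library left out (37 without KO replicate 1, 28 without WT replicate 2, 5 without KO replicate 2). The RIP count of 0 was 1 with no filter on low values, and that row was not Rmrp; it was 0 with 1 library left out. The Rmrp difference kept its sign in its 11 alternatives, from -0.205 with a pseudocount of 0.1 to -0.0090 without KO replicate 3. Over bases not shared with other genes, a length chosen after seeing the data, Malat1 exceeded Rpph1 by 12.7-fold in place of 43.4-fold, and Rpph1 exceeded Neat1 by 45.9-fold in place of 12.6-fold, because Rpph1 then has fewer bases. Fits without the 2 genes with the highest counts were also added after seeing the data. Rpph1 had the lowest depth, with 114 to 160 reads a library, and reads touching its shared bases were not among them.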

Other observations

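A single-exon gene of 331 bases on chromosome 9, ENSMUSG00002076161 (78082585 to 78082915, minus strand), had the second highest count of all genes. It took 4.28%, 3.84% and 4.31% of the KO input libraries and 4.63%, 4.14% and 3.11% of the WT input libraries, several times the share of Malat1, and had 0 RIP rows. All its bases lay outside other annotated genes. RefSeq lists Rn7sk on chromosome 9 with 332 bases. On that chromosome 5 genes of the count files lie within 1 base of that length. Their counts were not set beside one another, so no name was given to ENSMUSG00002076161. It was singled out after its values were seen.

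Malat1 levels of same-numbered KO and WT libraries lay close together, at KO over WT ratios of 0.962, 0.996 and 0.984 for numbers 1, 2 and 3, while the highest replicate exceeded the lowest by 1.28-fold within KO and 1.24-fold within WT. The order of the replicate numbers was the same in both genotypes for 15.4% of tested genes. For Neat1 the ratios were 0.863, 1.20 and 1.27, and for Rpph1 1.12, 0.863 and 1.14.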
